A study of Mus musculus with 4 samples.

Results

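Messenger RNA of 33 autophagy and lysosome genes was measured in whole brown fat from mice in which thermogenic adipocytes lack ATF4 (KO) and set against that from wild-type controls (WT). The genes were chosen by symbol, from the machinery that builds the autophagosome, the receptors that load it, the mitophagy receptors and the lysosome it fuses with, and they are 33 of the 52022 genes with a deposited transcript. All 33 were found in the annotation, and all 33 passed the filter on low counts. The series holds 4 libraries, KO 1 and KO 2 against WT 1 and WT 2, all from male mice that ate freely from a diet with 60% fat for 12 weeks, so no library stands for lean tissue or for fasting. The labels do not say how ATF4 was deleted, and name no promoter, Cre line, strain or age. The tissue was sequenced whole, with ATF4 removed from its thermogenic adipocytes as labelled. The labels also give library names that start with S1 (KO 1 and WT 2) or S2 (KO 2 and WT 1). The labels do not say what the prefix means. With 1 KO and 1 WT library under each prefix, the same genes were also compared between prefixes.

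Macroautophagy wraps cytoplasm in a double membrane and delivers it to the lysosome, where hydrolases break it down. Starvation and inhibition of the kinase mTORC1 start the process through the ULK1 kinase, and ATG8 proteins (the LC3 and GABARAP families), attached to membrane lipid by a ubiquitin-like conjugation system, extend the membrane and bind receptors that hold cargo. In brown and beige fat, autophagy of mitochondria is known to take part in the loss of thermogenic mitochondria when stimulation ends. TFEB and TFE3 activate lysosome genes through an E-box type element called CLEAR, and ATF4 is known in mouse embryonic fibroblasts starved of amino acids to drive autophagy genes including Sqstm1, Map1lc3b, Nbr1 and Atg12.

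Promoter sequences of the members are shown because the known regulators of these genes bind there. RefSeq promoters on GRCm38.p6, the 250 bases before each RefSeq start, were present for 27 of the 33 members, with 32 start sites in all. Such a start can lie inside the gene. The Atg7 window below is downstream of the first annotated base of that gene, 114643097. Both strands were searched for the E-box CACGTG, for the CLEAR-type form GTCACGTG, which contains CACGTG, and for the ATF4-type element TGATGNAA. The E-box was found in 28.1% of member promoters and in 6.02% of all 32851 promoters of the same length, the CLEAR-type form in 18.8% and 1.85%, and the ATF4-type element in 3.125% and 3.45%. The 9 members with an E-box were Atg3, Atg5, Atg7, Bnip3, Ctsa, Ctsd, Ctsl, Lamp1 and Mcoln1. Of these 9, 6 held the CLEAR-type form (Atg3, Atg7, Ctsa, Ctsd, Lamp1 and Mcoln1). Among the 27 members with a promoter, Ctsl was the one with the ATF4-type letters. The 6 members without a promoter, Atg12, Atg16l1, Becn1, Bnip3l, Ctsb and Map1lc3a, were not searched. A match is a description of the letters and not a binding site. Windows are written 5′ to 3′ on the gene's strand, with the E-box in capitals in the upper 6 and the ATF4-type element, read on the opposite strand, in capitals for Ctsl.
Atg3 promoter, chr16:45158719-45158779, plus strand: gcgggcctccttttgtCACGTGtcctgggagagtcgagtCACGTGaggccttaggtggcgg
Atg7 promoter, chr6:114670948-114670985, plus strand: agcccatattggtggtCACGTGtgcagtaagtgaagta
Ctsd promoter, chr7:142388051-142388077, minus strand: tccccCACGTGacctgtatccagtcat
Lamp1 promoter, chr8:13159084-13159160, plus strand: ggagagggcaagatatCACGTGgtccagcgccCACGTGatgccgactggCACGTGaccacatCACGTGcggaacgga
Atg5 promoter, chr10:44268309-44268338, plus strand: agggcggagcgcttgcCACGTGgtcttggt
Bnip3 promoter, chr7:138909593-138909630, minus strand: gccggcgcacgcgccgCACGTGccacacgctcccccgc
Ctsl promoter, chr13:64370650-64370689, minus strand: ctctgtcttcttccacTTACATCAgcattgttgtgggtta

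The genotype label and the depth of the libraries were checked before the members. KO 1 and KO 2 held 25985367 and 30405113 estimated counts, against 32714456 and 34813870 in WT 1 and WT 2. Atf4 itself was at 24.97 and 24.5 CPM (counts scaled to a library total of 1000000) in KO 1 and KO 2, against 29.2 CPM in the library labelled WT 1 and 107 CPM in WT 2, so in the library labelled WT 1 it was close to the KO level. Values given below for WT 1 are those of the library so labelled, and each direction between genotypes rests on that label. Atf4 was not called by edgeR's quasi-likelihood test, with -1.46 as log2 fold change (SE 0.57) and 0.9998 as adjusted p. With the library labelled WT 1 left out it fell by 2.11 in log2 (edgeR adjusted p = 0.000624), and with WT 2 left out the difference was -0.24 (0.9999). With no filter on low counts edgeR also called it (adjusted p = 2.08e-07), and over 12 alternatives it was called in these 2. Genes of mitochondrial DNA held 38.9% and 32.95% of the counts in KO 1 and KO 2, against 34.1% and 33.9% in WT 1 and WT 2. Ucp1, the uncoupling protein that defines brown adipocytes, was at 7024 and 5989 CPM in KO 1 and KO 2, against 5563 and 6295 CPM in WT 1 and WT 2. Of 8 brown adipocyte markers, 0 passed in edgeR, where 0.78% of all tested genes did, or in DESeq2 or limma. An unadjusted p under 0.05 was reached by 0 of the 8 in these tests and by 1 with both terms. Skeletal muscle markers summed to 3465 and 3111 CPM in KO 1 and KO 2, against 44.1 and 62.9 CPM in WT 1 and WT 2, and 16 of 18 rose in edgeR. White adipocyte markers summed to 87.3 and 162 CPM in KO 1 and KO 2, against 389.7 and 289 CPM in WT 1 and WT 2. Of these 5, 0 passed in edgeR or limma, and 2 in DESeq2 (Lep and Nnat, against 1.39% of all genes). With both terms 4 fell (Lep, Nnat, Mest and Slc7a10, against 2.05% of all genes called). Macrophage markers summed to 133 and 395 CPM in KO 1 and KO 2, against 478 and 358 CPM in WT 1 and WT 2. None of the 15 macrophage markers was at 0 in any library, and 0 passed in edgeR, with or without the prefix as a term, in DESeq2 or in limma. An unadjusted p under 0.05 was found for 3 of the 15 in edgeR (4.02% of all genes), 12 with both terms (8.88%), 4 in DESeq2 (3.45%) and 2 in limma (4.24%). KO 1 stood far below the other libraries. These differences in other cell types were not tested for their part in any member's value, and in whole tissue fewer cells of a type and less RNA per cell cannot be told apart.

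The members spanned a wide range of levels in the tissue, led by lysosomal proteases. On the deposited TPM scale, which is per length, Ctsd (cathepsin D, an aspartic protease) averaged 606 ± 104 and Ctsb (cathepsin B, a cysteine protease) 475 ± 154 (SD over the 4 libraries), and their ranges overlapped. The Ctsb level rests in part on Ctsb-202, a short retained-intron transcript with 38.9% to 62.1% of its TPM over the 4 libraries, and the protein-coding Ctsb-201 alone had 149.6 to 224 TPM. Map1lc3a, an LC3 gene, followed at 440 ± 12.1 TPM, then Lamp1, the main glycoprotein of the lysosomal membrane, at 261 ± 34.3 TPM and Gabarap, an ATG8 protein of the other branch, at 216 ± 22.3 TPM. Pink1, the kinase that marks damaged mitochondria, had 152 ± 33.8 TPM, beside 141 ± 23.1 for Bnip3, a mitophagy receptor of the outer mitochondrial membrane. The lowest was Atg14, a subunit of the lipid kinase complex that starts the membrane, at 3.57 ± 0.52 TPM. Lysosome genes held 44.2% and 49.3% of the summed member TPM in KO 1 and KO 2, against 50.05% and 52.3% in WT 1 and WT 2. ATG8 genes held 32.4% and 25.1% in KO 1 and KO 2, against 26.2% and 25.8% in WT 1 and WT 2. The share of KO 1 was the one that stood apart in both roles, with Ctsb-202 counted in the lysosome sum. That transcript had 95.1 and 349 TPM in KO 1 and KO 2, against 326.2 and 326.4 TPM in WT 1 and WT 2, so the low lysosome share of KO 1 rests in part on it. Within the ATG8 family, Map1lc3a had 4.08 and 3.03 times the TPM of Map1lc3b in KO 1 and KO 2, against 3.21 and 3.19 times in WT 1 and WT 2. Most of the Map1lc3a level lies on transcripts annotated as processed transcripts. The protein-coding Map1lc3a-201 had 32.1 to 38.3 TPM. The protein-coding Map1lc3b-201 and Map1lc3b-203 had 53.8 to 63.5 and 41.7 to 82.2 TPM, so the order of the genes reverses on coding transcripts.

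**Figure D1:**
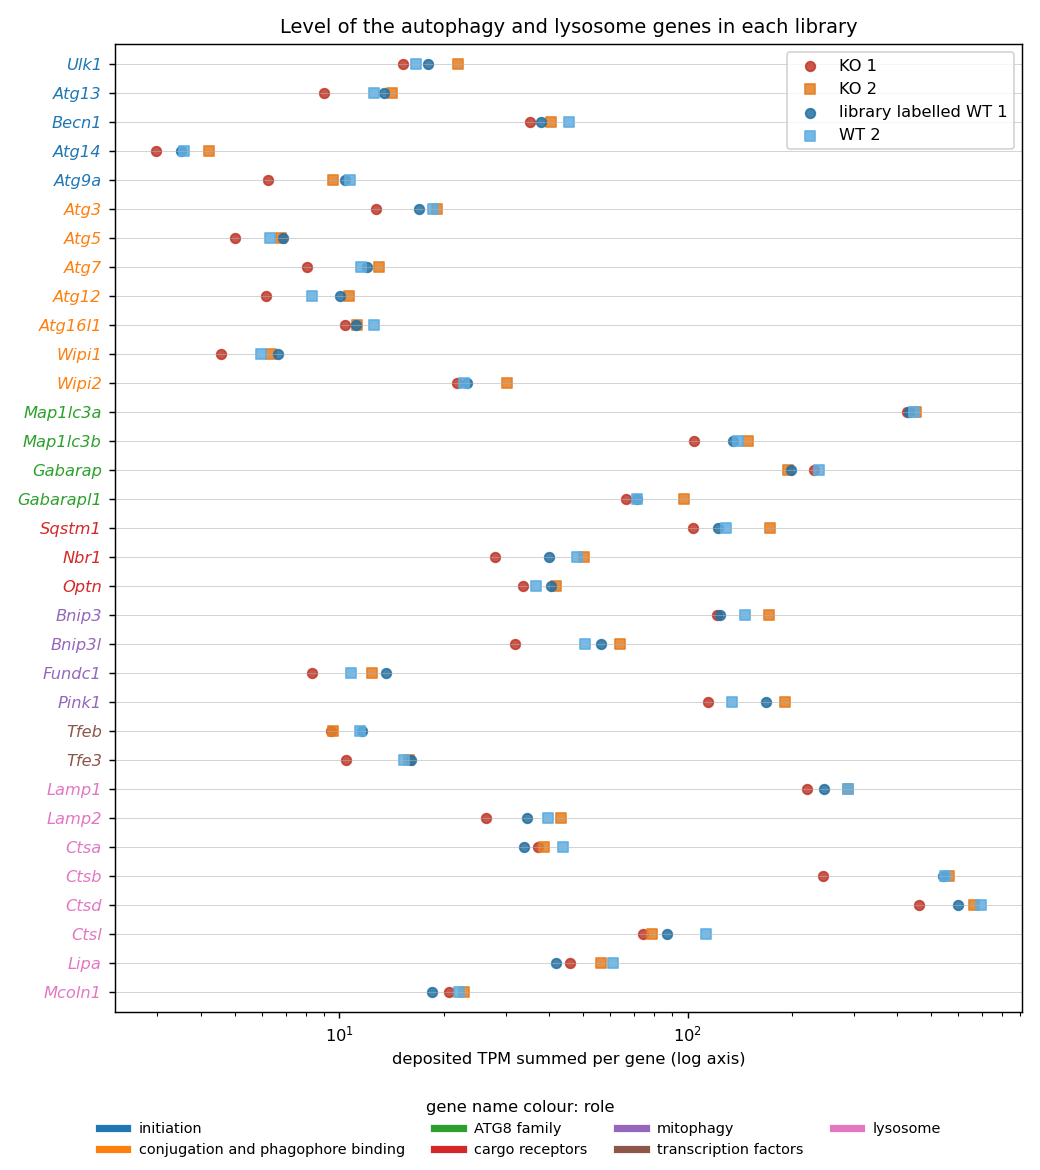
Level of each of the 33 genes in each library, as deposited TPM summed per gene on a log axis, with genes grouped by role and gene names coloured by it. Mean levels run from 606 TPM for Ctsd to 3.57 TPM for Atg14, and KO 1 has the lowest TPM of the 4 libraries for Ctsd, Ctsb, Atg14 and Sqstm1, among others.

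No gene of the 33 was called different between the libraries labelled KO and those labelled WT. In the edgeR test 0 members passed at an adjusted p of 0.05, against 0.78% of all tested genes, and 0 had an unadjusted p under 0.05, against 4.02% of all genes. With both genotype and prefix as terms 0 members passed (2.05% of all genes did) and 0 had an unadjusted p under 0.05 (8.88% did). DESeq2 and limma also called 0 members, with 1.39% and 0.793% of all genes called, and 0 members had an unadjusted p under 0.05 in DESeq2 (3.45% of all genes) and in limma (4.24%). The members' median log2 fold change was 0.04, from -0.27 for Atg9a to 0.30 for Gabarapl1, beside 0.00 over all tested genes. The fit placed 21 members above 0 and 12 below, against 8 above and 25 below in limma on log2(TPM + 1), where the median of all genes was -0.07. Their median absolute log2 fold change was 0.08, beside 0.15 over all tested genes, which include many at lower levels than the members. Among genes above a floor of 10 CPM, which were not matched further for level, the spread was close. The median fold of the highest over the lowest library in CPM was 1.28 for the members. It was 1.32 for the 7894 genes with a mean of at least 10 CPM. With the library labelled WT 1 left out, edgeR called 0 members and their median was 0.02. The 95% intervals of all 33 lay within a log2 change of 1 in either direction, and the outermost bounds were -0.87 for Ctsb and 0.92 for Sqstm1. The groups did not overlap for 5 members, or 15.2%, against 26.3% of all genes. Of these, Wipi2, Map1lc3a, Gabarapl1 and Bnip3 were higher in both KO libraries than in both WT libraries (12.1%, against 13.2% of all genes), and Atg16l1 was lower (3.03%, against 13.1%). Whether each library came from its own animal is not in the labels. All p-values here therefore rest on the spread between 4 libraries, which may be technical.

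**Figure D2:**
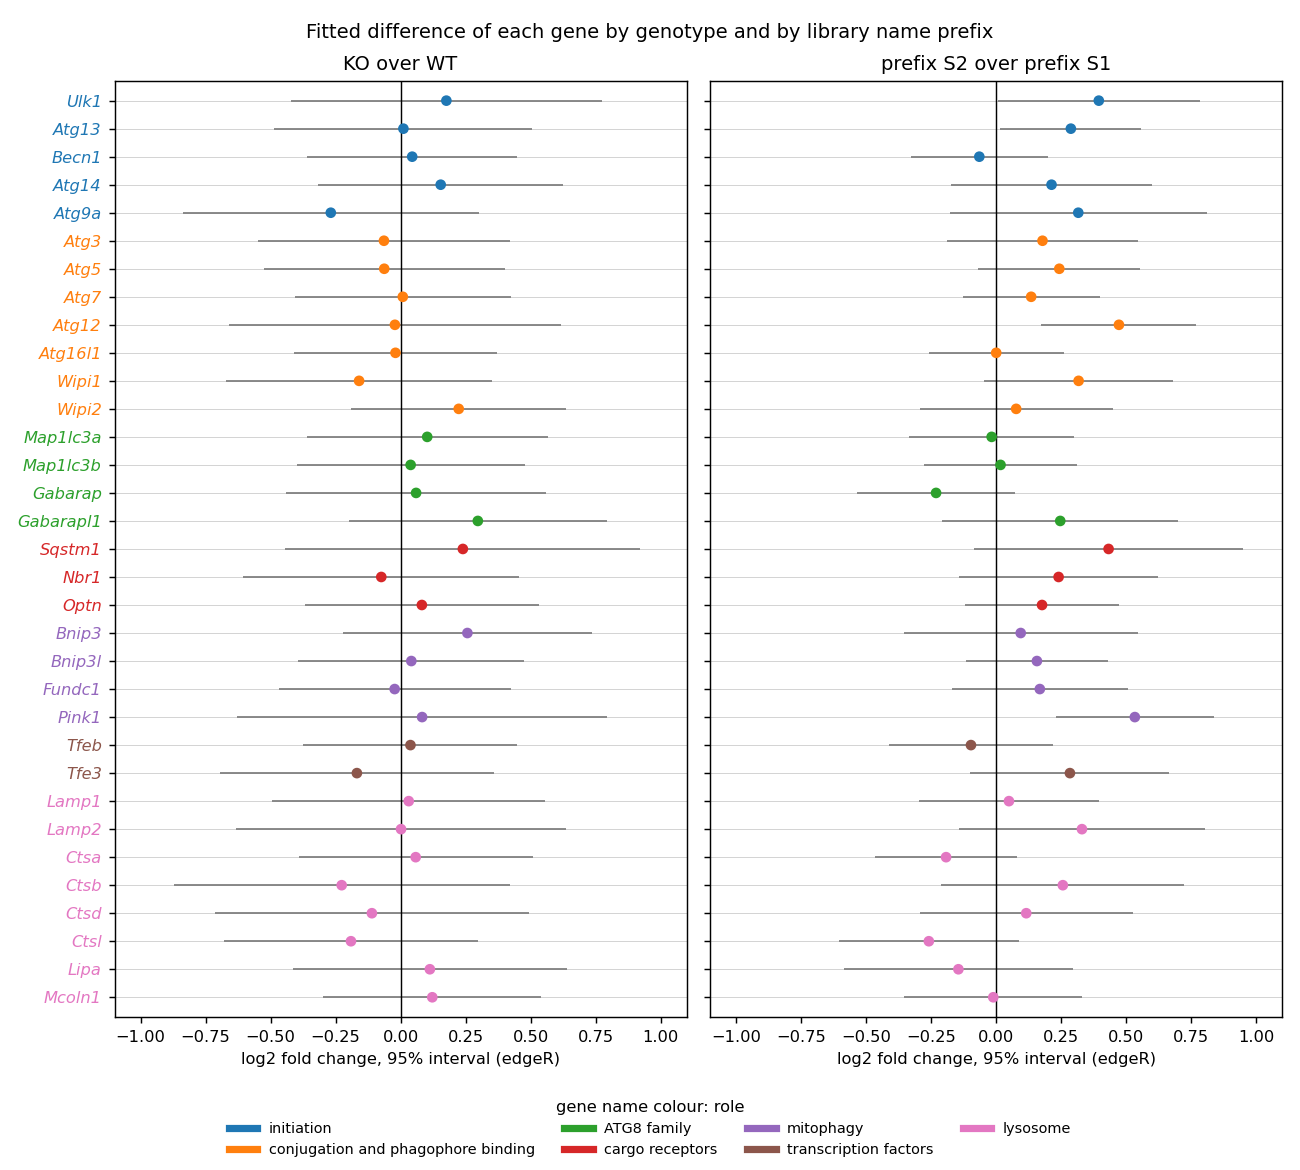
Fitted log2 fold change of each member with its 95% interval from edgeR, by genotype (KO over WT) and by library name prefix (S2 over S1). All genotype intervals lie between -0.87 and 0.92 and include 0, and the largest prefix value is 0.53 for Pink1.

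The genes that start autophagosome formation showed no common direction between genotypes. Ulk1, the kinase that starts autophagy, was at 53.6 and 80.4 CPM in KO 1 and KO 2, against 63.0 and 55.6 CPM in WT 1 and WT 2, a log2 fold change of 0.18 (SE 0.24). The KO libraries held both the lowest and the highest value. Atg9a, a membrane protein of the vesicles that seed the autophagosome, was at 23.5 and 34.7 CPM in KO 1 and KO 2, against 36.5 and 33.6 CPM in WT 1 and WT 2, the lowest fitted value of all members (-0.27, SE 0.23). The low value was that of KO 1, and KO 2 lay between the WT libraries. Atg14 was at 11.2 and 14.1 CPM in KO 1 and KO 2, against 11.7 and 11.1 CPM in WT 1 and WT 2 (0.15, SE 0.19). Becn1 (Beclin 1), its partner in the lipid kinase complex, stayed between 52.8 and 57.0 CPM in all 4 libraries (0.04, SE 0.16). Most Becn1 counts fell on transcripts annotated as nonsense-mediated decay or retained intron. Becn1-201, annotated as nonsense-mediated decay, held 53.4% to 61.8% of them. Atg13, the subunit that links ULK1 to its complex, was at 32.6 and 41.6 CPM in KO 1 and KO 2, against 39.6 and 34.03 CPM in WT 1 and WT 2 (0.01, SE 0.20), so the KO libraries enclosed the WT libraries.

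Among the 7 conjugation and phagophore binding genes, fitted differences ran from -0.16 for Wipi1 to 0.22 for Wipi2. Wipi2, which reads the lipid mark on the forming membrane and recruits ATG16L1, was at 108 and 115 CPM in KO 1 and KO 2, against 97.6 and 93.4 CPM in WT 1 and WT 2. Both KO libraries were above both WT libraries, by 0.21 within prefix S1 and 0.23 within S2 on the log2 CPM scale, and the fit gave 0.22 (SE 0.17), which was not called (unadjusted p = 0.232). Wipi1, its relative, was at 10.9 and 13.8 CPM in KO 1 and KO 2, against 15.2 and 12.4 CPM in WT 1 and WT 2 (-0.16, SE 0.21), with overlap. Atg16l1, the scaffold that places the conjugation complex, was the most even member at 32.9 and 32.5 CPM in KO 1 and KO 2, against 33.3 and 32.99 CPM in WT 1 and WT 2. Its groups did not overlap, but its fitted difference was -0.02 (SE 0.16). Atg12, the ubiquitin-like protein joined to ATG5, was at 30.8 and 46.4 CPM in KO 1 and KO 2, against 44.0 and 34.4 CPM in WT 1 and WT 2 (-0.02, SE 0.26). Here too the KO libraries enclosed the WT libraries. Atg7, the enzyme that activates ATG8 proteins, had 0.01 (SE 0.17). Atg3, the enzyme that transfers them, had -0.06 (SE 0.20), and Atg5 had -0.06 (SE 0.19).

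All 4 ATG8 genes were fitted above 0 in KO with edgeR, and 2 had groups that did not overlap in CPM. In limma on log2(TPM + 1), where the median of all genes was -0.07, 3 of the 4 were below 0. Of these 3, Map1lc3a was close to 0, with -0.0007 as its lowest value over 12 alternatives. Gabarapl1, a GABARAP relative (ENSMUSG00000030161, chromosome 6, 129533160 to 129542346, plus strand, GRCm38), was at 124 and 160 CPM in KO 1 and KO 2, against 119 and 112 CPM in WT 1 and WT 2. The gap between KO 1 and WT 1 was small, and the fitted log2 fold change of 0.30 (SE 0.20, 95% interval -0.20 to 0.79), the largest of the members, had an unadjusted p of 0.191 in edgeR. Map1lc3a was at 315 and 295 CPM in KO 1 and KO 2, against 290 and 277 CPM in WT 1 and WT 2 (0.10, SE 0.19). Map1lc3b, the LC3 gene most used as an autophagosome marker, was at 193 and 206 CPM in KO 1 and KO 2, against 190.0 and 198 CPM in WT 1 and WT 2 (0.04, SE 0.18). Gabarap was at 205 and 163 CPM in KO 1 and KO 2, against 169 and 185 CPM in WT 1 and WT 2 (0.06, SE 0.20). For Map1lc3b and Gabarap the groups overlapped.

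Of the cargo receptors, Sqstm1 varied most. Sqstm1 (p62; ENSMUSG00000015837, chromosome 11, 50199366 to 50210827, minus strand), which binds ubiquitin and LC3 and is itself degraded by autophagy, was at 127 and 211 CPM in KO 1 and KO 2, against 147 and 139 CPM in WT 1 and WT 2. KO 2 stood above the other 3 libraries and KO 1 below them, and the fitted log2 fold change was 0.24 (SE 0.28, unadjusted p = 0.420). Nbr1, a receptor of related structure, was at 82.9 and 115 CPM in KO 1 and KO 2, against 105 and 103 CPM in WT 1 and WT 2 (-0.07, SE 0.21). Optn (optineurin), a ubiquitin receptor of mitophagy, was at 91.2 and 98.1 CPM in KO 1 and KO 2, against 97.1 and 81.7 CPM in WT 1 and WT 2 (0.08, SE 0.18). For all 3 receptors the groups overlapped.

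Of the 4 mitophagy genes, Bnip3 alone had groups that did not overlap between genotypes. Bnip3 was at 203 and 243 CPM in KO 1 and KO 2, against 180.3 and 193 CPM in WT 1 and WT 2 (0.26, SE 0.19, unadjusted p = 0.234). Bnip3l (NIX), its close relative, was at 75.9 and 87.4 CPM in KO 1 and KO 2, against 82.3 and 76.4 CPM in WT 1 and WT 2 (0.04, SE 0.18). Pink1 (ENSMUSG00000028756, chromosome 4, 138313409 to 138326307, minus strand) was at 216 and 330 CPM in KO 1 and KO 2, against 298 and 218 CPM in WT 1 and WT 2. Its high values were those of prefix S2 in either genotype, and its genotype difference was 0.08 (SE 0.29). Fundc1, another receptor of the outer mitochondrial membrane, was between 11.4 and 13.8 CPM (-0.02, SE 0.18).

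The lysosomal regulators and components were also without a called difference. Tfeb was at 18.0 and 15.6 CPM in KO 1 and KO 2, against 16.4 and 16.3 CPM in WT 1 and WT 2 (0.04, SE 0.17). Tfe3 was at 33.3 and 45.6 CPM in KO 1 and KO 2, against 46.4 and 42.3 CPM in WT 1 and WT 2 (-0.17, SE 0.21), so the KO 1 value was the low one. Ctsb was at 851 and 1195 CPM in KO 1 and KO 2, against 1221 and 1173 CPM in WT 1 and WT 2 (-0.23, SE 0.26). Again KO 1 was below the other 3 libraries, as were its macrophage markers, and the part these cells play in Ctsb was not tested. Ctsd was at 994 and 1273 CPM in KO 1 and KO 2, against 1178 and 1269 CPM in WT 1 and WT 2 (-0.11, SE 0.24). Ctsl (cathepsin L), the member with ATF4-type letters in its promoter, was at 104 and 88.4 CPM in KO 1 and KO 2, against 99.4 and 121 CPM in WT 1 and WT 2 (-0.19, SE 0.20). Its groups overlapped, although KO was lower within each prefix, as was the case for Atg9a, Wipi1, Tfe3 and others. Any part of the promoter letters in the Ctsl value was not tested. Lipa, the acid lipase that frees fatty acids and cholesterol in the lysosome, was at 147 and 159 CPM in KO 1 and KO 2, against 120.4 and 162 CPM in WT 1 and WT 2 (0.11, SE 0.21). Lamp2, a membrane glycoprotein needed for autophagosome fusion, was at 68.5 and 109 CPM in KO 1 and KO 2, against 88.6 and 89.0 CPM in WT 1 and WT 2 (0.00, SE 0.26). The KO libraries enclosed both WT libraries. Lamp1 had 0.03 (SE 0.21), Ctsa, a protective carboxypeptidase, 0.06 (SE 0.18) and Mcoln1, the calcium channel of the lysosomal membrane, 0.12 (SE 0.17). For the 6 members with a CLEAR-type form, the genotype fold changes had a median of 0.02, from -0.11 to 0.12, and 0 were called.

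KO 1 and KO 2 often lay at opposite ends of the 4 libraries. KO 1 was the lowest library for 18 members, or 54.5%, against 35.0% of all tested genes and 43.3% of the 7894 genes with a mean of at least 10 CPM. KO 2 was the highest for 20 members, or 60.6%, against 24.8% and 32.0%. Within prefix S1 (KO 1 minus WT 2) the members' median difference was -0.05 in log2 CPM and 10 of 33 were higher in KO, while within S2 (KO 2 minus WT 1) it was 0.09 and 24 of 33 were higher in KO. The sign differed between the prefixes for 18 members (54.5%), against 48.0% of all genes. Lamp2 had -0.38 within S1 and 0.30 within S2, Sqstm1 -0.13 and 0.52, Lipa -0.14 and 0.40, and Ulk1 -0.05 and 0.35. The Lipa value within S2 rests on the transcript Lipa-202, at 57.0 CPM in KO 2 against 8.01 CPM in the library labelled WT 1. Lipa-201 was at 96.5 against 108.6 CPM in these libraries (transcript CPM without TMM scaling). Gabarapl1 (0.15 and 0.42), Bnip3 (0.07 and 0.43) and Wipi2 kept a positive sign in both, and Atg9a (-0.51 and -0.07), Ctsb (-0.46 and -0.03) and Ctsl (-0.21 and -0.17) a negative sign. Whether genotype acted differently in the 2 prefixes could not be tested, since no replicate is left within a prefix and genotype.

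**Figure D3:**
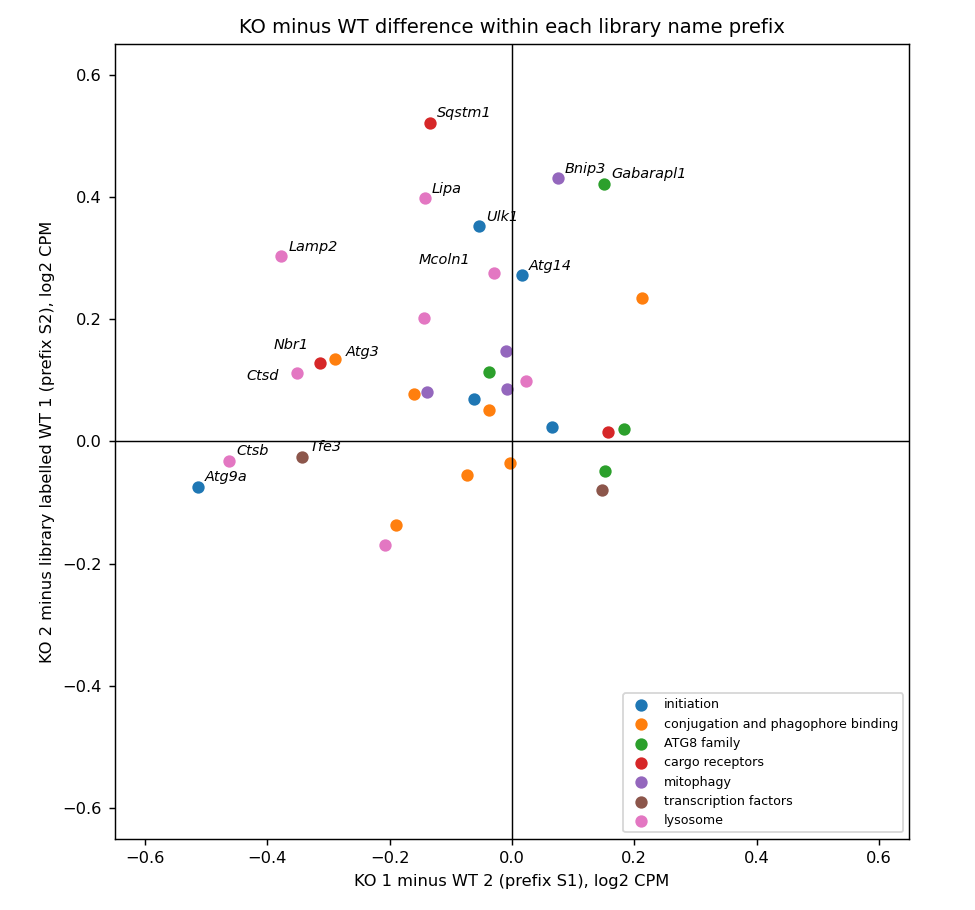
Difference of each member between genotypes in log2 CPM within prefix S1 (KO 1 minus WT 2, horizontal axis) and within prefix S2 (KO 2 minus the library labelled WT 1, vertical axis), coloured by role. Of 33 members, 18 lie in the upper left or lower right, where the sign differs, among them Sqstm1 at -0.13 and 0.52 and Lamp2 at -0.38 and 0.30.

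Between the library name prefixes, as between genotypes, edgeR called 0 members. The prefixes did not overlap for 16 members that were higher in S2 (48.5%, against 27.3% of all genes) and 4 that were lower (12.1%, against 25.9%), in all 60.6%, against 53.2% of all genes. The 4 were Becn1, Gabarap, Ctsa and Ctsl. The members' median log2 fold change, S2 over S1, was 0.17, beside -0.01 over all tested genes. In edgeR 0 members passed, beside 0.00639% of all genes, and 4 had an unadjusted p under 0.05 (12.1%, against 15.5% of all genes). With both genotype and prefix as terms 0 members passed, against 3.14% of all genes, and 3 had an unadjusted p under 0.05, against 19.8%. limma called 0 members (0.00639% of all genes), and 1 had an unadjusted p under 0.05 (10.4% of all genes). DESeq2 called 1 member, Pink1 (3.5% of all genes), and gave 4 an unadjusted p under 0.05 (Pink1, Atg12, Ulk1 and Sqstm1; 13.6% of all genes). Pink1 was at 330 and 298 CPM in the S2 libraries, against 216 and 218 CPM in the S1 libraries, with 0.53 as log2 fold change (SE 0.12). The adjusted p was 0.277 in edgeR and 0.00554 in DESeq2. Over 12 alternatives its adjusted p ranged from 0.00554 to 0.671. The other 3 with an unadjusted p under 0.05 in edgeR were Atg12 (0.47, SE 0.12), at 46.4 and 44.0 CPM in S2 and 30.8 and 34.4 CPM in S1, Ulk1 (0.39, SE 0.15) and Atg13 (0.29, SE 0.11). Sqstm1 had 0.43 (SE 0.20), Lamp2 0.33 (SE 0.18), Wipi1 0.32 (SE 0.14) and Atg9a 0.31 (SE 0.19). On the lower side, Ctsl had -0.26 (SE 0.13), Gabarap -0.23 (SE 0.12) and Ctsa -0.19 (SE 0.11). By role, the median prefix difference was 0.29 for initiation, 0.24 for cargo receptors, 0.18 for conjugation, 0.16 for mitophagy, 0.02 for the lysosome and 0.00 for the ATG8 family. Macrophage markers had a median of 0.93 between prefixes and a summed level of 395 and 478 CPM in S2, against 133 and 358 CPM in S1. Of the 15, 9 were higher in both S2 libraries than in both S1 libraries, 0 passed in edgeR, and 6 rose with both terms (Adgre1, Csf1r, Lyz2, C1qa, C1qb and Mpeg1). Endothelial markers, which include the adhesion receptor Pecam1, had a median of -0.67 and summed to 627 and 563 CPM in S2, against 1061 and 816 CPM in S1. Of these 5, 0 passed in edgeR, and 2 fell with both terms (Kdr and Emcn). The part of either cell type in the prefix differences was not tested.

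kallisto splits reads among transcripts, and for 28 of the 33 members the transcript with most counts was the same in every library. For the other 5 the leading transcript differed. Of 242 deposited member transcripts, those annotated as retained intron held 3.17% and 4.94% of the member counts in KO 1 and KO 2, against 5.02% and 5.12% in WT 1 and WT 2. Ctsb-202, a retained-intron transcript, held 7.77% and 17.9% of the Ctsb counts in KO 1 and KO 2, against 16.7% and 16.2% in WT 1 and WT 2, so KO 1 had the low share. Pink1-203, a protein-coding transcript, held 0 and 21.7% of the Pink1 counts in KO 1 and KO 2, against 19.2% and 10.5% in WT 1 and WT 2. Both S2 libraries were thus above both S1 libraries, as for the Pink1 level. The part of this transcript in the prefix difference of Pink1 was not tested. The short Sqstm1-204 held 34.2% and 17.1% of Sqstm1 in KO 1 and KO 2, against 19.1% and 22.5% in WT 1 and WT 2. Lipa-202 held 41.95% and 37.1% of Lipa in KO 1 and KO 2, against 6.86% and 35.95% in WT 1 and WT 2, and the library labelled WT 1 was the exception. Atg9a-201 held 27.95% and 53.7% of Atg9a in KO 1 and KO 2, against 59.2% and 51.1% in WT 1 and WT 2. No test was run on these estimated shares. Most Map1lc3a counts fell on 2 transcripts annotated as processed transcripts, with Map1lc3a-203 holding 43.8% and 56.2% in KO 1 and KO 2, against 52.6% and 47.7% in WT 1 and WT 2, so the high TPM of Map1lc3a rests on them.

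**Figure D4:**
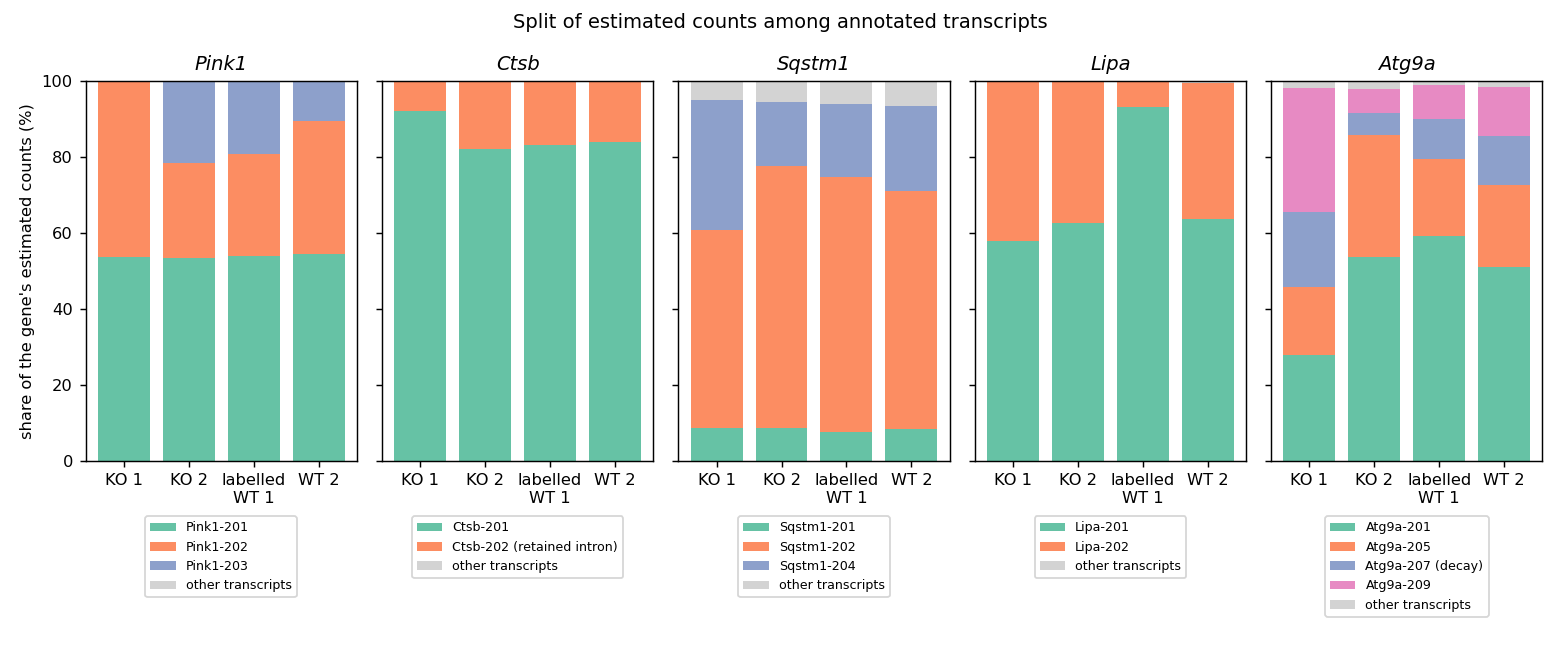
Share of a gene's estimated counts on named transcripts in each library, as stacked bars from 0 to 100%, with other transcripts in grey. KO 1 differs from the other libraries for Pink1-203 (0, against 10.5% to 21.7%), and the library labelled WT 1 for Lipa-202 (6.86%, against 35.95% to 41.95%). The Pink1-203 share is also higher in both S2 libraries than in both S1 libraries.

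Other genes of the pathway, in lists apart from the members, gave few called differences by genotype. In edgeR 0 passed of 31 other autophagy genes, 10 other mitophagy genes, 36 other lysosomal hydrolases and cofactors, 14 other lysosomal membrane proteins, 17 subunits of the V-ATPase (the proton pump that acidifies the lysosome), 24 genes of mTORC1 at the lysosome and 5 further regulators, and of these 137 genes 1 (Rragd) had an unadjusted p under 0.05. DESeq2 called 1 of the 137, Rragd (1.39% of all genes), and limma 0 (0.793%), each with 2 at an unadjusted p under 0.05 (3.45% and 4.24% of all genes). With both terms 1 of the mTORC1 genes rose and 1 of the hydrolases fell (2.05% of all genes were called), and 7 of the 137 had an unadjusted p under 0.05 (8.88%). Rragd (ENSMUSG00000028278, chromosome 4, 32983037 to 33022180, plus strand), a small GTPase that brings mTORC1 and TFEB to the lysosome and is itself a known TFEB and TFE3 target, was at 8.52 and 10.1 CPM in KO 1 and KO 2, against 3.25 and 4.002 CPM in WT 1 and WT 2. Both KO libraries were above both WT libraries, by 1.08 within S1 and 1.62 within S2 in log2 CPM. Its log2 fold change was 1.36 (SE 0.23, edgeR adjusted p = 0.116), and 1.36 (SE 0.22, edgeR adjusted p = 0.00746) with both terms. In DESeq2 the adjusted p was 0.00305, and over 12 alternatives its adjusted p ranged from 0.000144 to 0.9996, with 3 calls. Its log2 fold change ranged from 0.59 in limma on log2(TPM + 1), where a pseudocount understates changes of low genes, to 1.52 without WT 2. The skeletal muscle markers were higher in the same libraries, and their part in Rragd was not tested. Ctss (cathepsin S), a protease of antigen-presenting cells, was at 9.10 and 27.5 CPM in KO 1 and KO 2, against 41.5 and 30.1 CPM in WT 1 and WT 2. With both terms Ctss fell by 1.13 in log2 (SE 0.23, edgeR adjusted p = 0.0347), and its log2 fold change was -0.96 (SE 0.50) without the prefix term. Over 12 alternatives its adjusted p ranged from 0.00335 to 1.00, and its log2 fold change ranged from -1.97 without KO 2 to -0.38 without KO 1. The fit with both terms also called Ctss between prefixes, higher in S2 (edgeR adjusted p = 0.0495, with 3.14% of all genes called). Atp6v0d2, a V-ATPase subunit of macrophages and osteoclasts, was at 1.02 and 3.67 CPM in KO 1 and KO 2, against 4.33 and 4.57 CPM in WT 1 and WT 2 (-0.92, SE 0.57). For these, as for the macrophage markers, KO 1 was the lowest library. The macrophage markers' median log2 fold change was -0.67, with -1.60 within S1 and -0.11 within S2, and 6 of 15 were lower in both KO libraries than in both WT libraries, against 13.1% of all genes. Their part in Ctss and Atp6v0d2 was not tested. Flcn (folliculin), which acts on RagC and RagD, was at 72.8 and 117 CPM in KO 1 and KO 2, against 80.5 and 70.4 CPM in WT 1 and WT 2 (0.33, SE 0.26), with overlap.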

How the data were processed

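The labels set each library's genotype group and replicate number. TRIzol and RNeasy extraction and a TruSeq kit that keeps strand were used, per the labels' protocols. The submitters' processing notes name kallisto 0.45.0 and build mm10, and no source here names the transcript set or strand setting. The deposited files hold estimated counts and TPM from the authors for 141450 transcripts, per the file headers. Of these, 97.7% matched GENCODE vM21 (GRCm38) and were summed per gene. The 3259 unmatched ones held 0.992% to 1.04% of the counts and stayed out.

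Estimated counts were rounded to whole numbers and fitted with edgeR 4.0.16 in R 4.3.3 (TMM, filterByExpr with a minimum count of 10 and a minimum total of 15, quasi-likelihood test), for KO over WT and for S2 over S1. p-values were adjusted by Benjamini-Hochberg over 15643 genes, with a threshold of 0.05. CPM values use TMM-scaled library sizes, and log2 CPM a prior count of 2. The SE is the fitted change over the square root of F. The fit with genotype and prefix as terms leaves 1 residual degree of freedom. Alternatives were DESeq2 1.42.0, its size factors in edgeR, limma 3.58.1 on log2(TPM + 1) and log2(TPM + 0.1), no filter, a replicate block, no genes of mitochondrial DNA, and leaving out each library. The fits were tested on simulated data. Genes were named by a rule: members by role, and from each other list at most 3 with the smallest p. The members, lists and tests were chosen with earlier results of these data known. Depth was 25985367 to 34813870 counts, and every member had over 10 CPM in every library.

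Exons of 12 members overlap a gene on the opposite strand and those of 4 a gene on the same strand (14 in all), so their reads are uncertain where counting could split them. Promoters are from the RefSeq table for GRCm38.p6.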

Additional observations from a re-analysis of the deposited data

How the results depend on the processing

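By genotype, 0 members were called under every alternative run, while the calls over all genes (122 in edgeR) were 218 in DESeq2, 320 with both terms, 457 without a filter and 78 to 205 with a library left out (78 without KO 2, 187 without WT 1 and 205 without WT 2). The members' median of 0.04 became -0.13 in limma on log2(TPM + 1), where the median of all genes was -0.07 (-0.11 with a pseudocount of 0.1), and ran from -0.085 without KO 2 to 0.12 without KO 1. Without KO 1, Sqstm1 and Gabarapl1 had an unadjusted p under 0.05, and without KO 2, Atg9a. By prefix, the calls over all genes (1 in edgeR) were 548 in DESeq2, 491 with both terms, 823 without a filter, 0 with the replicate block and 0 to 1 with a library left out, and 1 member was called in DESeq2. The prefix median of 0.17 was 0.24 in limma on log2(TPM + 1) and 0.10 to 0.21 with a library left out.

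Of 396 member values by genotype under the alternatives, 30 moved by more than 1 SE and 64 changed sign, in 25 members, 17 of which lay within 0.1 of 0. By prefix, 34 of 396 moved by more than 1 SE and 20 changed sign, in 10 members. The cause was not tested. With a replicate block 164 genes and 0 members were called by genotype. Libraries of the same number deviated in opposite directions (correlation -0.38 over 15643 genes), and the crossed pairing is that of the prefixes, which the fit with both terms holds (320 calls). The correlation for the prefixes is the same value with the opposite sign, so it cannot tell whether the numbers also pair the libraries.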
